A study of Mus musculus with 6 samples.

Results

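The miR-23/27/24 clusters are a pair of miRNA loci of the mouse genome, each of which makes one miR-23, one miR-27 and one miR-24 hairpin from a shared primary transcript. Their members were taken by name, as the 10 names mmu-miR-23a-3p, mmu-miR-23b-3p, mmu-miR-27a-3p, mmu-miR-27a-5p, mmu-miR-27b-3p, mmu-miR-27b-5p, mmu-miR-24-3p, mmu-miR-24-1-5p, mmu-miR-24-2-5p and mmu-miR-3074-5p, given below without the species prefix. The last is a name for the strand opposite to miR-24. All 10 were among the 2009 miRNA names listed, and all 10 passed the filter on low levels that left 409 names for the test. Small RNA was measured in hearts of male mice, all perfused in isolation on a Langendorff system, in which the coronary vessels are supplied through the aorta. In the 3 sham hearts the beat was not stopped, while the 3 hearts of the ischemia and reperfusion (I/R) group were stopped with Tomas cardioplegia, a solution that arrests contraction, for 30 min and reperfused for 1 h. The labels give no strain, age or genotype, and they call the libraries biological replicates without saying that each came from a separate animal, so p-values measure the spread between these libraries. An isolated heart holds only the blood cells left in it.

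A miRNA hairpin is cut into a duplex, one strand of which is usually loaded into an Argonaute protein and guides it to mRNAs that match its seed, bases 2 to 8 from the 5′ end. The strands are called 5p and 3p after their side of the hairpin, and the less loaded one is usually degraded. The miR-23/27/24 clusters are known for their expression in endothelium and heart muscle, where they have been studied in vessel growth, in the growth of heart muscle cells and in cell death, and miR-27 is also known for restraining fat cell formation. In whole hearts, fewer cells of a type and less RNA per cell cannot be told apart.

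The locus on chromosome 8 (GRCm38.p6) spans 404 bases of the plus strand, from 84208518 to 84208921, with the hairpins Mir23a, Mir27a and Mir24-2 in that order. Mir23a and Mir27a lie outside annotated genes, and Mir24-2 overlaps an exon of the lincRNA Gm26532 with its last 2 bases. The locus on chromosome 13 spans 792 bases of the plus strand, from 63300484 to 63301275, with Mir23b, Mir27b and Mir24-1. It lies within the protein-coding gene 2010111I01Rik, with Mir23b in an intron, Mir27b in an exon found only in transcripts marked for nonsense-mediated decay, and Mir24-1 over exons of such and other noncoding transcripts, and opposite to an intron of Fancc. The hairpins Mir3074-2 and Mir3074-1 lie on the minus strand over Mir24-2 (84208825 to 84208907) and Mir24-1 (63301199 to 63301283).

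RefSeq's miRNA table held mature sequences for 9 of the 10 members. They are shown because the members share parts of their sequence, which bears on how reads can be told apart, with the seed in capitals:
miR-23a-3p: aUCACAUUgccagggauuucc
miR-27a-3p: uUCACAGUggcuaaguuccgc
miR-27b-3p: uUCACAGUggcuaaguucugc
miR-24-3p: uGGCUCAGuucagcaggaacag
miR-27a-5p: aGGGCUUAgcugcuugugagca
miR-27b-5p: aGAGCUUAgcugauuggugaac
miR-24-1-5p: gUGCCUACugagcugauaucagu
miR-24-2-5p: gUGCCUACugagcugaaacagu
miR-3074-5p: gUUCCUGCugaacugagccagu
The 3p arms miR-27a-3p and miR-27b-3p have the same seed and are the same at 20 of 21 positions, with the single difference C19U, counted from the 5′ end with the miR-27a-3p base first. The 5p arms are less alike. The seeds of miR-27a-5p and miR-27b-5p differ by G3A, and these names are the same at 14 of 22 positions. miR-24-1-5p and miR-24-2-5p share their seed and their first 16 bases, and from U17A on they differ at 5 of the 22 positions compared. The counts for the 5p arms run position by position without gaps, so a missing base also counts at positions after it. Both miR-24 5p arms end in the same bases, cagu. miR-24-3p is the same sequence from both loci, so its level cannot be split between them.

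The pair of miR-23 hairpins is shown with the longest stretch they share in capitals:
Mir23a: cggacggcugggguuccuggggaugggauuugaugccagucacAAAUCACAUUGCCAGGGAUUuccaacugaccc
Mir23b: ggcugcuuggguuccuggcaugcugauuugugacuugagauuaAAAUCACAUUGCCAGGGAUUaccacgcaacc
The stretch covers 20 bases, at positions 44 to 63 of both hairpins, and holds the seed of miR-23a-3p. Mir27a and Mir27b also share a longest stretch of 20 bases. A short read from such a stretch fits both hairpins, and how reads that fit several names were assigned is not given in the sources used here.

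The 6 libraries held 7874103 to 9197869 reads on miRNA names, and 3 reads, the limit that a count of 0 allows, corresponded to 0.326 to 0.381 RPM (reads per 1000000 reads on miRNA names). Levels are given as RPM, and since the deposited values use the same length for every name, no length correction enters a comparison of names. How evenly reads of different names were captured and assigned was not tested, so the order of names is an order of reads. The heart muscle miRNAs, miR-1a-3p with 4 others, were all present, with a summed share of 38.5% to 39.0% in the sham group and 35.8% to 38.3% in the I/R group. The 4 endothelial miRNAs held 2.5% to 2.76% and 2.59% to 3.19%, and no marker of smooth muscle, fibroblasts, red blood cells or leukocytes was at 0 in every library. miR-1b-5p was not on the heart muscle list, and how its reads relate to those of miR-1a-3p was not tested. Together, miR-1a-3p and miR-1b-5p took up 57.0 ± 0.38% of a sham and 54.8 ± 1.85% of an I/R library (SD, n = 3 each). With equal totals, a lower share of these names raises the RPM of all others together. The chi-square per degree of freedom between libraries of a group was 33.3 to 133 in sham hearts and 85.3 to 125 in I/R hearts. The lowest value was that of sham replicates 1 and 3, while sham replicate 2 gave 133 and 86.2 against them, within the range of the I/R group or close to it. Of the 409 names, 42 (10.3%) were higher in sham replicate 2 than the mean of the other sham libraries by over 0.5 on the log2 scale, and 33 (8.07%) were lower.

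miR-27 was the most abundant seed of the clusters, and miR-23 the scarcest of the 3 main arms. miR-27b-3p ranked first of the members, with a mean of 9667 RPM over the 6 hearts, and stood at rank 17 among all names. miR-27a-3p followed with 5612 RPM, then miR-24-3p with 5288 RPM and miR-3074-5p with 5279 RPM. This order takes each name singly. Summed, miR-24-3p and miR-3074-5p were at 9632, 11015 and 9689 RPM in the sham hearts and 10315, 10851 and 11901 RPM in the I/R hearts. That sum lay above miR-27b-3p in every library, and below the sum of the miR-27 3p arms. miR-24-2-5p, the opposite arm of the chromosome 8 hairpin, was at 891 RPM. Below it stood miR-27a-5p with 175 RPM, miR-23b-3p with 164 RPM and miR-23a-3p with 92.5 RPM. The scarcest members were miR-24-1-5p with 35.4 RPM and miR-27b-5p with 12.9 RPM, the latter on 95 to 134 reads per library. In this order the ranges over the 6 hearts overlapped for miR-27a-3p and miR-24-3p, for miR-24-3p and miR-3074-5p, and for miR-27a-5p and miR-23b-3p. In the first of these pairs miR-27a-3p lay above miR-24-3p in 5 of the 6 libraries, all but sham replicate 2. In the second, miR-24-3p lay above miR-3074-5p in 3 of the 6. In the third the order turned on the library: miR-27a-5p lay above miR-23b-3p in all 3 I/R hearts and in sham replicate 2, and below it in sham replicates 1 and 3. The ranges of the other neighbours were separate.

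**Figure D1:**
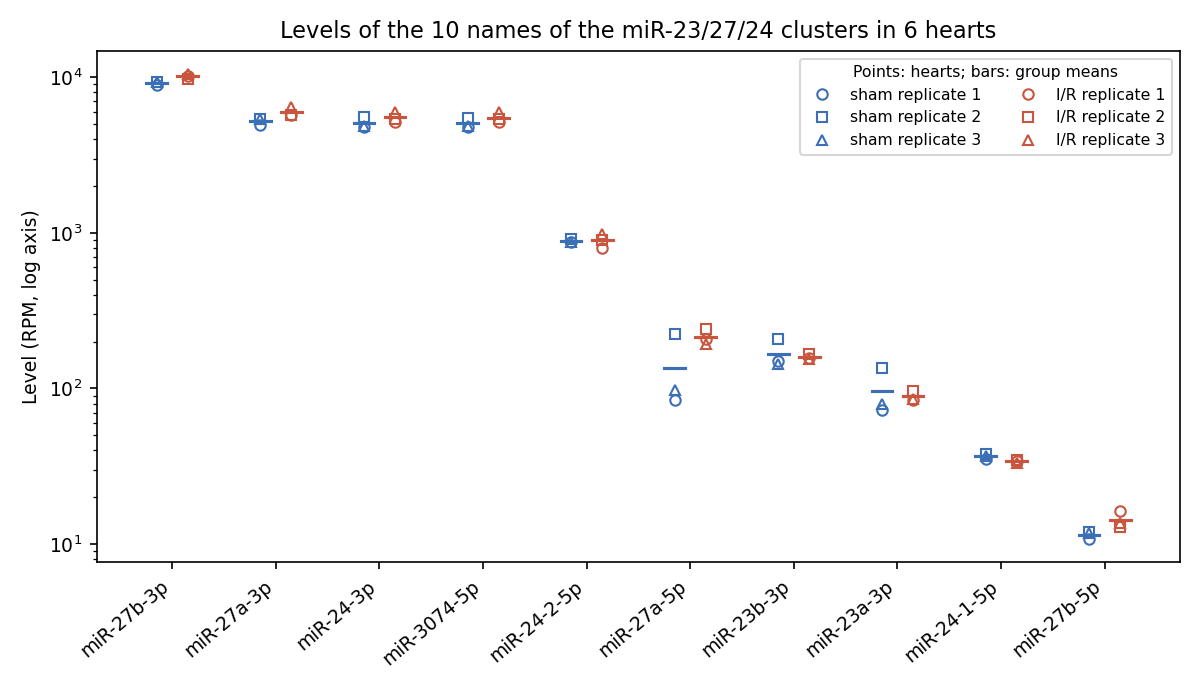
Level of each of the 10 members in RPM (log axis) in the 3 sham and 3 I/R hearts, with 1 point per heart and a bar for each group mean. The members' means range from 12.9 RPM for miR-27b-5p to 9667 RPM for miR-27b-3p, and sham replicate 2 stands with the I/R hearts for miR-27a-5p and above all hearts for miR-23a-3p and miR-23b-3p.

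Names that come from a shared primary transcript differed widely in level. On chromosome 13, miR-27b-3p stood at 9667 RPM and miR-23b-3p at 164 RPM, and on chromosome 8, miR-27a-3p stood at 5612 RPM and miR-23a-3p at 92.5 RPM. The order of the loci also depended on the arm that was read. For the 3p arms chromosome 13 was higher in all 6 libraries, with miR-27a-3p at 0.553 to 0.615 times the level of miR-27b-3p and miR-23a-3p at 0.485 to 0.654 times that of miR-23b-3p. The miR-23 hairpins, like the miR-27 hairpins, share a stretch of 20 bases. How reads that fit both loci were assigned is not given, and its part in these levels and ratios was not tested. For the 5p arms chromosome 8 was higher in all 6 libraries, with miR-27a-5p at 7.84 to 18.8 times the level of miR-27b-5p and miR-24-2-5p at 23.4 to 29.9 times that of miR-24-1-5p.

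miR-24-3p, an abundant miRNA of heart muscle and vessels, held its reads in an even split with the name for the opposite strand. Its reads were 44214, 48966 and 39148 in the sham hearts and 42432, 44407 and 46809 in the I/R hearts. miR-3074-5p held 44377, 48495 and 39328 in the sham hearts and 42110, 44331 and 46900 in the I/R hearts. The share of miR-24-3p in the sum was 49.9% to 50.2% per library and 50.04% over all (95% Wilson interval 49.91% to 50.18%, which covers counting error only).

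The sequences show how the names relate. The bases of one that pair with the other in full are in capitals:
miR-24-3p: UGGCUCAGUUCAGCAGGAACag
miR-3074-5p: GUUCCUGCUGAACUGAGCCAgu
Each stretch of 20 bases is the reverse complement of the other, so a read of the locus fits one of them as it is and the other only on the opposite strand. The 5p arm of miR-24 showed the same split with the other arm of the opposite-strand hairpin. miR-24-2-5p shares 20 bases with the reverse complement of miR-3074-2-3p:
miR-24-2-5p: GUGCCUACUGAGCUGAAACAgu
miR-3074-2-3p: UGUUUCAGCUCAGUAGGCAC
It held 49.4% to 50.1% of their summed reads per library and 49.8% over all (interval 49.5% to 50.2%). For miR-24-1-5p and miR-3074-1-3p the share was 46.3% to 52.3% per library, on 512 to 642 summed reads, and 50.3% over all (interval 48.7% to 52.0%). In each of the 3 pairs the interval held 50% in 6 of 6 libraries. The members named for miR-24 are therefore uncertain taken singly, and their sums are given beside them: miR-24-3p with miR-3074-5p came to 10112 ± 783 RPM in the sham group and 11022 ± 807 RPM in the I/R group, miR-24-2-5p with miR-3074-2-3p to 1780.3 ± 44.2 and 1794 ± 175 RPM, and miR-24-1-5p with miR-3074-1-3p to 71.3 ± 1.40 and 69.4 ± 5.14 RPM (SD, n = 3 each).

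**Figure D2:**
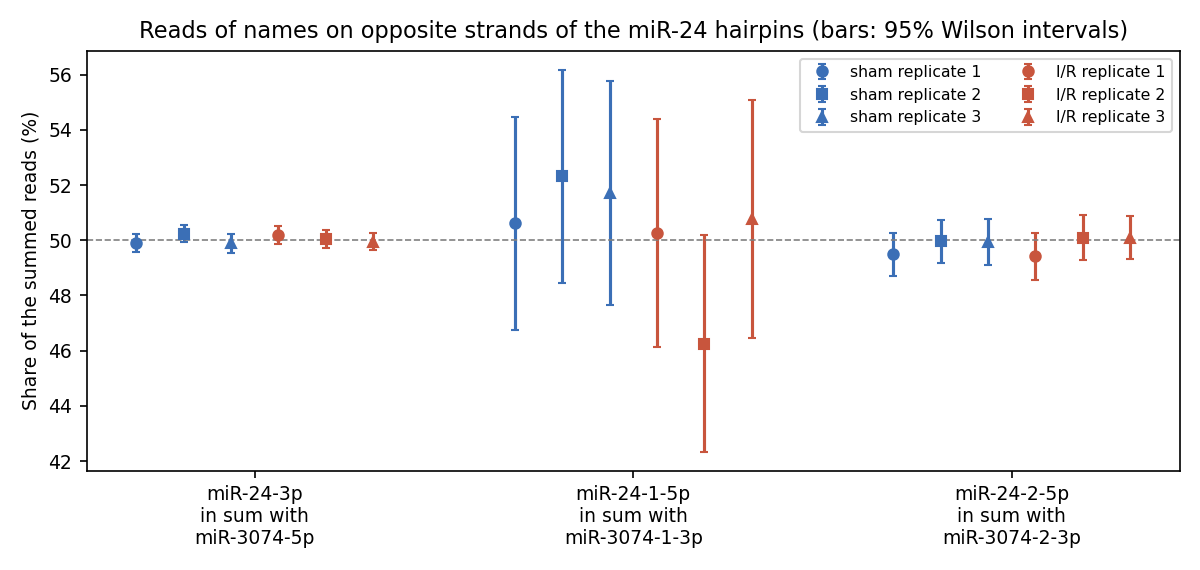
Share of the summed reads, in %, held by miR-24-3p, miR-24-1-5p and miR-24-2-5p against their opposite-strand names in each of the 6 hearts, with 95% Wilson intervals as bars. All 18 intervals hold the dashed line at 50%, and they are widest for miR-24-1-5p, which has 512 to 642 summed reads.

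The comparison of I/R with sham hearts asked whether cardioplegic arrest and reperfusion moved these miRNAs. No member passed the test in limma, a linear model on log2(RPM + 1) over all 409 names with Benjamini-Hochberg adjustment, where 0% of all names passed. The members' adjusted p was 0.598 to 0.976. Before adjustment, 2 of the 10 members had a p under 0.05, both higher in I/R, against 7.09% of all names. edgeR and DESeq2 on the recovered reads also called 0 members, with 0 at an unadjusted p under 0.05 in each. Before adjustment 26 of the 409 names were under 0.05 in edgeR and 17 in DESeq2, and after it 0 names passed in edgeR and 2 (0.489%) in DESeq2. The groups did not overlap for 3 members on the higher side, where this held for 11.2% of all names, and for 1 on the lower side, where it held for 3.91%. The members' fold changes had a median of 0.12 on the log2 scale, beside a median of 0.10 over all names, and 7 were positive and 3 negative.

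The miR-27 3p arms were the most abundant members whose groups did not overlap. miR-27a-3p was at 4912, 5385 and 5422 RPM in the sham hearts and at 5765, 5728 and 6461 RPM in the I/R hearts. Every I/R heart stood above every sham heart, and I/R replicate 3 was the highest. Its mean went from 5239.9 ± 285 to 5985 ± 413 RPM (SD, n = 3 each), a log2 fold change of 0.19 (SE 0.08, 95% interval 0.01 to 0.38) with limma adjusted p = 0.598. miR-27b-3p was at 8888, 9285 and 9383 RPM in the sham hearts and at 10134, 9810.2 and 10499.9 RPM in the I/R hearts. Its groups did not overlap either, and I/R replicate 3 was again the highest. Its log2 fold change was 0.14 (SE 0.07, 95% interval -0.0045 to 0.29) with limma adjusted p = 0.598. Together the miR-27 3p arms took up 1.44 ± 0.0546% of a sham and 1.61 ± 0.0740% of an I/R library.

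The size of this difference depended on how the libraries were scaled. With median-ratio scaling, which shifted the median of all names by -0.10, the log2 fold change of miR-27a-3p was 0.09, and in edgeR it was 0.08. For miR-27b-3p the values were 0.04 and 0.03. With either median-ratio scaling or totals taken without the 10 most abundant names, the groups of miR-27b-3p overlapped, while those of miR-27a-3p, miR-27b-5p and miR-24-1-5p remained separate. Over all names, separate groups on the higher side then made up 6.11% and 7.58%, and on the lower side 8.07% and 6.85%, for the first and second of these scalings.

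miR-27a-5p, the less abundant arm of the chromosome 8 hairpin, had the largest fold change of the members, and its call turned on 1 library. It was at 84.4, 226 and 98.4 RPM in the sham hearts and at 207, 240.4 and 193 RPM in the I/R hearts. Sham replicate 2 lay inside the I/R range, and the other sham hearts lay below every I/R heart. With all hearts the mean went from 136 ± 77.8 to 214 ± 24.2 RPM (SD, n = 3 each), a log2 fold change of 0.78 (SE 0.32, 95% interval 0.06 to 1.5) with limma adjusted p = 0.598. Without sham replicate 2 the sham mean was 91.4 RPM, the log2 fold change 1.21 (SE 0.13) and limma's adjusted p 0.0161, the 1 call among the 409 names (0.244%). Over the other left-out libraries it ranged from 0.51 without sham replicate 1 (limma adjusted p = 0.812) to 0.85 without I/R replicate 3. With the replicate number as a block, limma's adjusted p was 0.052, and 4 of the 409 names passed (0.978%), none of them a member. In sham replicate 2, miR-27a-5p stood 1.30 above the mean of the other sham hearts on the log2 scale, the second largest deviation of the 409 names in either direction.

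miR-27b-5p, the rare arm of the chromosome 13 hairpin, also had separate groups. It was at 10.8, 12 and 11.7 RPM in the sham hearts and at 16.3, 12.8 and 13.6 RPM in the I/R hearts. I/R replicate 1 was the highest, while I/R replicate 2 lay close to the highest sham heart. The log2 fold change was 0.28 (SE 0.15) with limma adjusted p = 0.628, on a scale whose pseudocount of 1 RPM understates the change of a miRNA at this level.

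The miR-23 3p arms, whose hairpins share the stretch shown above, overlapped between the groups. miR-23a-3p was at 73.2, 136 and 79.5 RPM in the sham hearts and at 84.6, 96.7 and 85.2 RPM in the I/R hearts. miR-23b-3p was at 151, 208 and 144 RPM in the sham hearts and at 156, 167 and 155 RPM in the I/R hearts. For both, sham replicate 2 was the highest of the 6 hearts, and the other sham hearts lay below every I/R heart. The log2 fold changes were -0.06 (SE 0.22) and -0.05 (SE 0.15), and without sham replicate 2 they were 0.21 and 0.11, with limma adjusted p of 0.508 and 0.682. The part that this library has in these values can be read only from leaving it out, and what sets it apart was not tested.

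miR-24-3p was at 4807, 5534 and 4833 RPM in the sham hearts and at 5177, 5430.2 and 5945 RPM in the I/R hearts. The groups overlapped through sham replicate 2, and the log2 fold change was 0.13 (SE 0.09) with limma adjusted p = 0.661. The values of miR-3074-5p were nearly the same, with 0.12 (SE 0.09) and adjusted p = 0.666, and under quantile normalization both turned negative. miR-24-2-5p was at 871, 915 and 874 RPM in the sham hearts and at 801, 897 and 988 RPM in the I/R hearts. Its I/R hearts spread on both sides of the sham hearts, and its log2 fold change of 0.01 (SE 0.10) changed sign under each of the other scalings.

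miR-24-1-5p was the member with separate groups on the lower side. It was at 35.3, 38.0 and 37.0 RPM in the sham hearts and at 34.3, 34.7 and 33.0 RPM in the I/R hearts, with a log2 fold change of -0.11 (SE 0.12, limma adjusted p = 0.792). The gap between the groups was smaller than the spread within each. Its opposite-strand name miR-3074-1-3p, which held as many reads, was at 34.5, 34.6 and 34.6 RPM in the sham hearts and at 33.9, 40.4 and 32.0 RPM in the I/R hearts. There the groups overlapped, with a log2 fold change of 0.03 (SE 0.13), so the separation did not extend to the sum of both names.

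**Figure D3:**
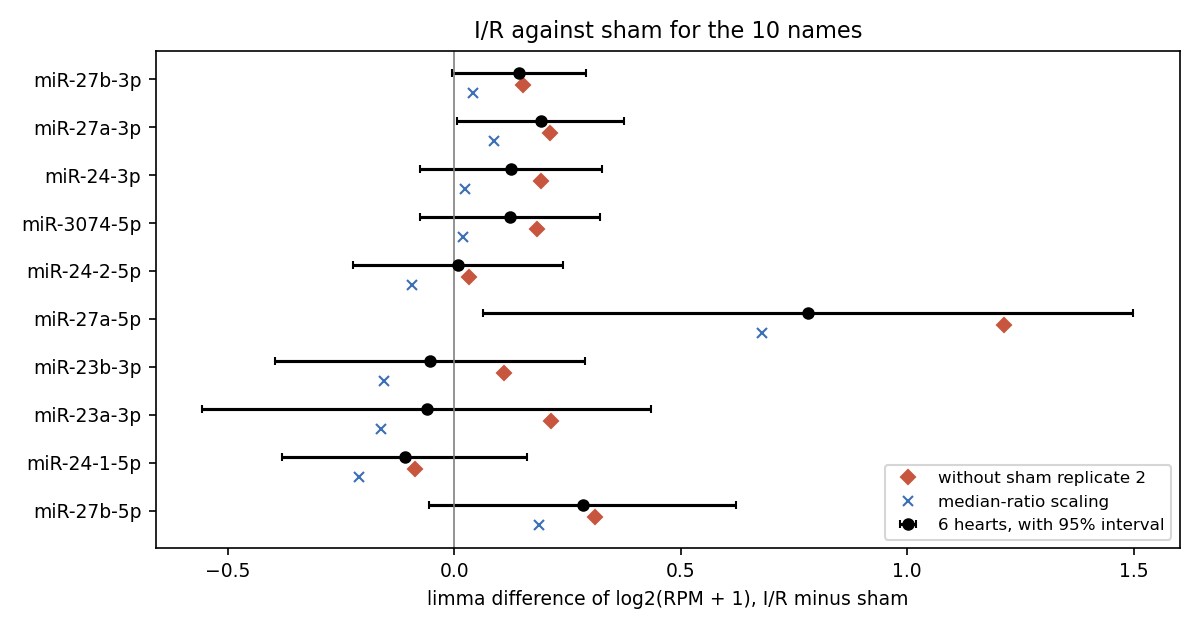
Difference of log2(RPM + 1), I/R minus sham, for the 10 members in limma with all 6 hearts and its 95% interval (circles), without sham replicate 2 (diamonds) and with median-ratio scaling (crosses). Without sham replicate 2 miR-27a-5p moves from 0.78 to 1.21 and the miR-23 names from below to above 0, and median-ratio scaling moves every member to the left.

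The ratio of the loci compares chromosome 8 with chromosome 13 within a library, on levels with 1 RPM added, and hardly depends on library totals. The log2 ratio of miR-27a-3p to miR-27b-3p was -0.86, -0.79 and -0.79 in the sham hearts and -0.81, -0.78 and -0.70 in the I/R hearts. The groups overlapped, and the difference of 0.05 gave exact permutation p = 0.4 (two-sided, adjusted p = 0.533 over the 4 ratios computed), with a range of 0.02 without I/R replicate 3 to 0.07 without I/R replicate 1. For the 5p arms the log2 ratio of miR-27a-5p to miR-27b-5p was 2.86, 4.13 and 2.97 in the sham hearts and 3.58, 4.12 and 3.74 in the I/R hearts, where sham replicate 2 was the highest of all (difference 0.50, exact permutation p = 0.4, adjusted p = 0.533). Without that library the difference was 0.90, and it was 0.27, 0.32 and 0.34 without sham replicate 1, sham replicate 3 and I/R replicate 2. The ratio of miR-24-2-5p to miR-24-1-5p went from a mean of 4.55 ± 0.03 to 4.67 ± 0.18 (difference 0.12, n = 3 each, exact permutation p = 0.4, adjusted p = 0.533), and the difference was 0.02 without I/R replicate 3 and 0.20 without I/R replicate 1. That of miR-23a-3p to miR-23b-3p was -0.83 ± 0.21 and -0.84 ± 0.05 (difference -0.0070, n = 3 each, exact permutation p = 0.9, adjusted p = 0.9). With 3 against 3 libraries no p below 0.1 is possible, so none of these ratios could have passed.

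Arm balance compares the 5p with the 3p arm of a hairpin, as the log2 ratio of their levels with 1 RPM added to each. None of the members' hairpins passed among 96 precursors tested in limma, where 0% passed and 6.25% had an unadjusted p under 0.05, none of them a member's. For miR-27a the log2 ratio was -5.85, -4.57 and -5.77 in the sham hearts and -4.79, -4.57 and -5.05 in the I/R hearts. The 3p arm dominated in every heart, at 23.8 to 58.2 times the 5p arm, and sham replicate 2 lay at the upper end of the I/R range. The difference was 0.59 (SE 0.35, limma adjusted p = 0.691), with a range over left-out libraries from 0.36 without sham replicate 1 to 1.00 without sham replicate 2 (limma adjusted p of 0.801 and 0.0823). For miR-27b the log2 ratio was -9.52 ± 0.04 in the sham group and -9.38 ± 0.17 in the I/R group (difference 0.14, SE 0.11, n = 3 each, limma adjusted p = 0.792), so its 5p arm was far rarer against the 3p arm than that of miR-27a. Without the added 1 RPM, the 3p arm of miR-27b was at 826, 775 and 800 times the 5p arm in the sham hearts and at 619.8, 764 and 773 times in the I/R hearts. On that plain scale the groups were separate toward the 5p arm, by a narrow gap, while with 1 RPM added they overlapped.

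The miR-24 5p arms were set against the shared miR-24-3p. For miR-24-1 the log2 ratio was -7.05, -7.15 and -6.99 in the sham hearts and -7.20, -7.25 and -7.45 in the I/R hearts. The groups did not overlap toward the 3p arm, which held for 7.29% of the precursors, beside 5.21% separate toward the 5p arm and none of these a member's on this scale, and the difference was -0.24 (SE 0.11, limma adjusted p = 0.584). With the opposite-strand names summed it was -0.17 (limma adjusted p = 0.731), and the groups overlapped, with I/R replicate 2 inside the sham range. For miR-24-2 the ratio was -2.51 ± 0.08 in the sham group and -2.63 ± 0.06 in the I/R group (difference -0.12, SE 0.10, n = 3 each, limma adjusted p = 0.821).

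The 5p arms of the miR-23 hairpins were scarce. miR-23b-5p was at 5.54, 3.50 and 4.94 RPM in the sham hearts and at 4.76, 3.91 and 5.59 RPM in the I/R hearts, lowest in sham replicate 2, where miR-23b-3p was highest. miR-23a-5p had 2 to 14 reads per library and fell below the filter. It was at 0.326, 1.58 and 0.247 RPM in the sham hearts and 0.488 to 0.635 RPM in the I/R hearts, so that its highest value too lay in sham replicate 2.

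Across the 6 hearts, the 3p arms of miR-23 varied together, and so did those of miR-27. Pearson's r of log2(RPM + 1) was 0.97 between miR-23a-3p and miR-23b-3p and 0.97 between miR-27a-3p and miR-27b-3p, which lie on different chromosomes. For these 3p arms within a locus it was 0.07 between miR-23a-3p and miR-27a-3p and -0.14 between miR-23b-3p and miR-27b-3p. The arms of a hairpin had 0.63 for miR-27a-3p and miR-27a-5p and 0.81 for miR-27b-3p and miR-27b-5p. Other pairs did not follow the seed. miR-24-1-5p and miR-24-2-5p, which share theirs, had -0.16. Names of different seeds reached 0.81 for miR-27a-3p and miR-24-3p and 0.71 for miR-27b-3p and miR-24-3p. miR-23a-3p and miR-27a-5p, both of the chromosome 8 locus, had 0.68, while miR-23b-3p and miR-27b-5p of chromosome 13 had -0.06. These are descriptions over 6 libraries that share a scaling by equal totals. The miR-23 hairpins share a stretch of 20 bases that covers most of miR-23a-3p, with its seed. The stretch of 20 bases shared by the miR-27 hairpins covers most of both miR-27 3p arms, with their seed. How reads that fit both loci were assigned is not given, and its part in these correlations was not tested. Sham replicate 2 set the miR-23 names apart, with 0.82 for miR-23a-3p and 0.49 for miR-23b-3p above the mean of the other sham hearts on the log2 scale, beside 0.06 for miR-27a-3p and 0.02 for miR-27b-3p.

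**Figure D4:**
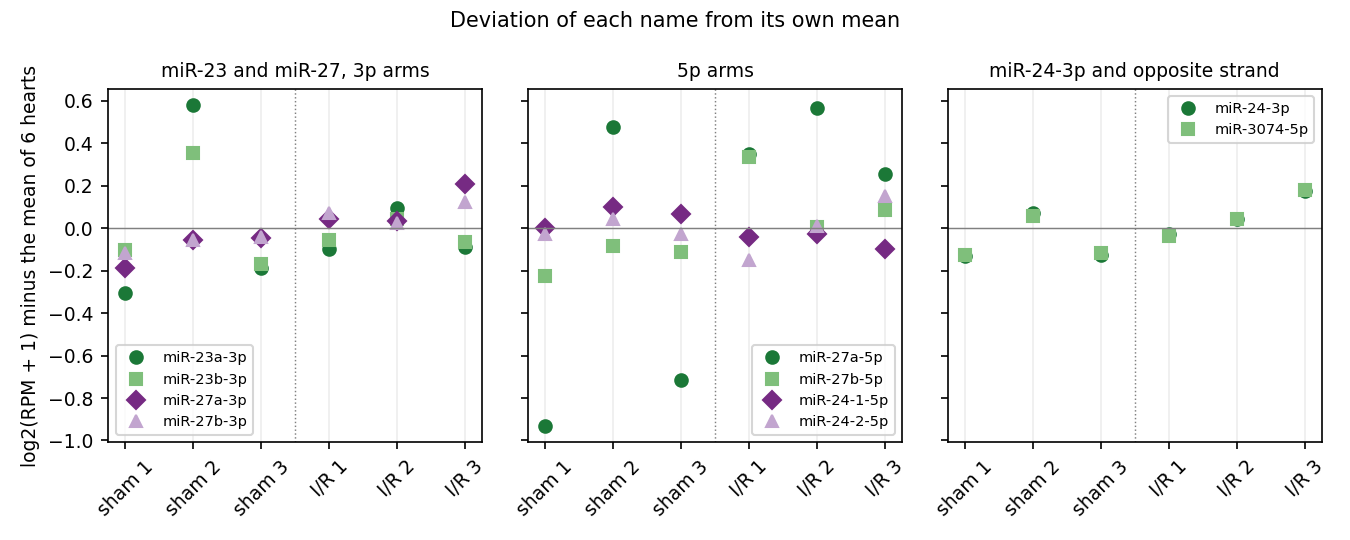
Deviation of log2(RPM + 1) from the mean of the 6 hearts for the 3p arms of miR-23 and miR-27 (left), the 5p arms (middle), and miR-24-3p with miR-3074-5p (right), with 1 point per heart and sham hearts left of the dotted line. Both miR-23 names are at their highest in sham replicate 2 while the miR-27 3p arms stay near 0 there, and miR-24-3p and miR-3074-5p lie on each other.

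Outside the clusters, the names most like a member were those with the highest Pearson's r over the 6 libraries. For miR-27a-3p they were miR-6240 (r = 0.99), miR-541-5p (0.99) and miR-3068-3p (0.97), and for miR-27b-3p they were miR-541-5p (0.99), miR-1843b-5p (0.97) and miR-1839-5p (0.96). miR-541-5p, which headed both lists or came next, was at 47.6, 55.3 and 59.1 RPM in the sham hearts and at 69.9, 64.6 and 84.8 RPM in the I/R hearts, with the same lowest and highest heart as miR-27a-3p. For miR-24-3p they were miR-369-5p (0.99), miR-362-3p (0.98) and miR-378c (0.98), and the same 3 names came out for miR-3074-5p. For miR-27a-5p they were miR-181a-5p (0.98), miR-574-3p (0.97) and miR-362-5p (0.97). miR-181a-5p was at 396, 453 and 404 RPM in the sham hearts and at 454, 445 and 447 RPM in the I/R hearts. It too had sham replicate 2 with the I/R hearts, within a far narrower range. All these names were picked by their r over the same 6 libraries, so a like pattern follows from the pick.

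Other miRNAs whose seed shares at least 6 bases in a row with a member's were looked up in the RefSeq sequences. miR-128-3p, a miRNA abundant in brain and muscle, overlaps the seed of miR-27 by 6 bases, shifted by one position, and is shown with its seed in capitals:
miR-128-3p: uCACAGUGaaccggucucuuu
It was at 4307, 2730.04 and 3940.2 RPM in the sham hearts and at 3897, 3639 and 4369 RPM in the I/R hearts, lowest in sham replicate 2. The groups overlapped, with a log2 fold change of 0.14 (SE 0.16). miR-673-5p shares 6 bases with the same seed and was at 1.89 ± 0.687 RPM in the sham group and 2.07 ± 0.475 RPM in the I/R group. miR-21a-5p shares 6 bases with the seed of miR-27b-5p, and miR-3544-3p shares 6 with that of miR-3074-5p. Neither passed the test, with log2 fold changes of 0.23 (SE 0.11) and 0.57 (SE 0.21). miRNAs that share the seed of miR-24-3p in full, such as miR-6413, lay below the filter.

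A list of 10 miRNAs of the vessel wall, often studied beside these clusters, gave the setting. All 10 were kept, 0 were called in either direction in limma, 0 had an unadjusted p under 0.05, and their median log2 fold change was 0.05, beside 0.10 over all names. miR-126a-3p, the main endothelial miRNA, was at 24426, 26946 and 25318 RPM in the sham hearts and at 25349, 26374 and 31326 RPM in the I/R hearts, with overlapping groups and a log2 fold change of 0.11 (SE 0.09). miR-222-3p, which restrains vessel growth, had the largest positive value, 0.28 (SE 0.15), and miR-130a-3p the largest negative one, -0.27 (SE 0.18). I/R replicate 3 was the highest heart for miR-126a-3p and for miR-27a-3p, miR-27b-3p and miR-24-3p, and it was also the heart with the smallest share of the miR-1 names. The part of that share in the members' values was tested only by the scalings given above.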

How the data were processed

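The authors deposited 1 signal value per mature miRNA name and library for 3 sham and 3 I/R libraries. The submitters' processing notes name fastp 0.23.0, bcl2fastq 2.19.1.403 and mm10. Not given in the sources used here were the aligner, miRNA annotation, strand setting and handling of multiply matching reads. Per the labels' protocols the kits were for poly(A) mRNA, although the titles name miRNA-seq. Each deposited signal column was checked to be whole multiples of its smallest value, which recovered whole reads for 100% of values within 0.01 reads, and levels were computed as RPM.

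Names were tested if their mean reached 1 RPM and 3 or more libraries had a value above 0. The test was limma 3.58.1 (R 4.3.3, trend, two-sided, threshold 0.05) on log2(RPM + 1), checked on simulated data. edgeR 4.0.16 and DESeq2 1.42.0 were run on the recovered reads as alternatives, beside pseudocounts, filters, scalings, limma settings, summed names and left-out libraries. Single ratios were compared with exact permutation tests. Sequences and hairpin positions are RefSeq's (GRCm38.p6), and gene annotation is from GENCODE for that build.

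Both groups carry replicate numbers 1 to 3 in the labels. Libraries of the same number deviated from their group means together, though weakly (r = 0.14, 0.28 and 0.16, all above 0.1). Between libraries of different numbers r was -0.19 to 0.07. Which values would arise without pairing was not tested. On the basis of the same-number values alone the numbers were treated as pairs, and only in the alternative with the replicate block. The main tests took the libraries as unpaired. Replicates differed by more than sampling noise in every group.

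The members and lists were chosen with earlier results of these data known. Named besides the members were other names of the loci, the 3 kept names with the highest correlation to miR-27a-5p and to each member of at least 1000 RPM, names with related seeds, and a vessel-wall list.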

Additional observations from a re-analysis of the deposited data

How the results depend on the processing

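No member was called under 18 of 19 alternatives to the test. Leaving out each library in turn gave 0 to 1 called members and 0 to 1 called names, with the 1 call, miR-27a-5p, without sham replicate 2. Over all names the count of 0 became 1 without a filter, 4 with the replicate block and 2 in DESeq2, none of these a member. The replicate block, with deviations paired by number, changed no call among the members, in the arm balance or in the ratios, where 3 pairs allow no p below 0.25. Over left-out libraries the log2 fold change of miR-23a-3p ranged from -0.23 to 0.21 and that of miR-23b-3p from -0.15 to 0.11, each above 0 only without sham replicate 2. The arm balance of miR-23b ranged from -0.24 (without sham replicate 2) to 0.26 and was -0.04 without I/R replicate 3. Quantile normalization turned the log2 fold change of miR-24-3p to -0.038 and that of miR-3074-5p to -0.019. miR-24-2-5p was at -0.094 with median-ratio scaling, -0.046 with quantile normalization, -0.062 with totals without the 10 most abundant names, -0.10 in edgeR and -0.087 in DESeq2, and over left-out libraries it ranged from -0.064 (without I/R replicate 3) to 0.086, with -0.0033 and -0.0012 without sham replicates 1 and 3. The difference in the ratio of miR-23a-3p to miR-23b-3p ranged from -0.11 to 0.10 over left-out libraries, above 0 without sham replicate 2, I/R replicate 1 (0.013) or I/R replicate 3 (0.0012). The cause of these turns was not tested. miR-27a-3p, miR-27b-3p, miR-27a-5p, miR-27b-5p and miR-24-1-5p kept their direction under all 19. Depth limits miR-27b-5p, with 95 to 134 reads, and miR-23a-5p, with 2 to 14. The 3-pair sums and the separation of groups under other scalings were added after seeing the data.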

Other observations

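Sham replicate 2 was the highest heart for 6 of the 10 names of the vessel-wall list: miR-126a-5p, miR-221-3p, miR-130a-3p, miR-210-3p, miR-132-3p and miR-145a-5p. The other 4 were highest in I/R replicate 3, and the share of all names highest in either heart is not given here. Sham replicate 2 stood farthest above the others for miR-132-3p, a miRNA induced by neuronal and growth factor signalling, and for miR-145a-5p, a miRNA of smooth muscle, which were picked out after their values were seen. miR-132-3p was at 18.4, 41.1 and 16.2 RPM in the sham hearts and at 20.4, 23.4 and 23.6 RPM in the I/R hearts. miR-145a-5p was at 32.6, 78.0 and 40.4 RPM in the sham hearts and at 39.7, 41.8 and 37.8 RPM in the I/R hearts. Of the 10 members, 2 lay over 0.5 above the mean of the other sham hearts in this library on the log2 scale (miR-27a-5p and miR-23a-3p), beside 10.3% of all names, and 8.07% of all names lay over 0.5 below that mean.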
